A study of Mus musculus with 24 samples.

Results

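The genes described here encode the subunits of the proteasome, and they were taken from the 55359 genes of the count table by symbol: Psma, Psmb, Psmc, Psmd or Psme followed by a number, with a mean raw count of at least 10 over 24 wells. Of 43 genes with such a symbol, 40 met the count minimum. They comprised 13 subunits of the constitutive core, 3 of the immunoproteasome, 17 of the regulatory particle, 3 chaperones of regulatory particle assembly and 4 subunits of alternative activators. The member just inside the minimum was Psmb9, with a mean count of 10.8. The genes just outside it were Psmb11 (1.29), Psma8 (0.792) and Psmb7 (0.667).

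The cells were immature oligodendrocytes, the precursors of the brain's myelin-forming cells, sorted with magnetic beads carrying an O4 antibody from the cortex of C57Bl6J mouse pups aged 5 to 7 days. They were differentiated for 3 days, mainly with triiodothyronine (T3, thyroid hormone), and then kept for 3 days with ethanol or at 0 mM. Experiment 1 had 6 wells at 30 mM ethanol and 6 controls, and experiment 2 had 6 wells at 10 mM and 6 controls. Controls stood in a separate incubator and each dose was used in 1 experiment. The effect of ethanol and that of the incubator therefore cannot be told apart, nor can dose and experiment. No label gives a genotype or transgene, and none says whether wells came from separate litters, so p-values measure the spread between wells.

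RNA was counted by 3′ tag sequencing, which reads the end of each transcript, and levels are given as CPM, counts scaled to library size with TMM factors over all wells. Wells held between 1184609 and 1817028 counts, and the detection floor of 3 counts was worth 1.67 to 2.5 CPM. This floor reflects counting error alone, because PCR duplicates may be among the counts. The members' mean counts ran from 10.8 to 488 with a median of 203. In these bulk samples, fewer cells of a type and less RNA per cell cannot be told apart. Markers of mature oligodendrocytes, such as Mbp, summed to between 4709.7 and 11416 CPM in each well, and markers of astrocytes to between 3412 and 6126 CPM. The highest oligodendrocyte sum was that of replicate 1 at 30 mM, and the other 5 wells of its group were at 6536 to 6871 CPM. Over all genes, its counts differed from theirs by a chi-square of 2.07 to 2.88 per degree of freedom, against 1.16 to 2.12 among those 5. Replicate 2 also differed from replicates 3 to 6, by 1.75 to 2.12, while replicates 3 to 6 were at 1.16 to 1.42 among themselves. Replicates 1 and 2 were the deepest wells of the group. Microglia markers summed to between 220.0 and 363 CPM in experiment 1 and between 2397 and 3119 CPM in experiment 2.

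The proteasome is the protease complex that degrades proteins tagged with ubiquitin. Its barrel-shaped core is a stack of rings of alpha and beta subunits, and some of the beta subunits carry the cutting sites inside the barrel. The regulatory particle caps the core: a ring of ATPases (the Psmc genes) unfolds the substrate and threads it in, while non-ATPase subunits (Psmd genes) bind and remove ubiquitin and hold the cap together. In the immunoproteasome, which interferon induces and which immune cells hold in quantity, Psmb8, Psmb9 and Psmb10 take the places of the cutting subunits Psmb5, Psmb6 and Psmb7. In mammals, the transcription factor NRF1 raises most subunit genes together when proteasome activity is short, acting at antioxidant response elements.

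Because 13 members were lower together at 30 mM ethanol, the promoters of 4 of them are shown, with that of an immunoproteasome gene for contrast. RefSeq promoter sequences were matched by symbol for 35 of the 40 members. Psmb1, Psmb2, Psmc3, Psmd3 and Psmd7 were not among them. Each line gives the 250 bases before the transcript start, 5′ to 3′ on the gene's strand, in build GRCm38.p6. Capitals mark a CCAAT box (CCAAT), an antioxidant response element core (TGACNNNGC), an interferon-stimulated response element core or a GAS element (TTCNNNGAA) on either strand.
Psmc1, a regulatory particle ATPase, chr12:100109952-100110201, plus strand: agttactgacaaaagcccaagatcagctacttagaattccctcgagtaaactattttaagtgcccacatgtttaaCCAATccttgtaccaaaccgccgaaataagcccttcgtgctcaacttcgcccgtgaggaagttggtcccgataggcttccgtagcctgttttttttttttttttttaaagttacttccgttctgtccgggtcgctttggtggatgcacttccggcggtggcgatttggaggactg
Psmc4, a regulatory particle ATPase, chr7:28050093-28050342, minus strand: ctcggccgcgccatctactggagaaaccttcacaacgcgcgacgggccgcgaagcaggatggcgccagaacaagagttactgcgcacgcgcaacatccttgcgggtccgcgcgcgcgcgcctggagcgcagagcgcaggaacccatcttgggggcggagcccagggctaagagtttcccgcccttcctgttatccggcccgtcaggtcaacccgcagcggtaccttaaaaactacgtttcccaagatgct
Psmd12, a regulatory particle scaffold subunit, chr11:107479278-107479527, plus strand: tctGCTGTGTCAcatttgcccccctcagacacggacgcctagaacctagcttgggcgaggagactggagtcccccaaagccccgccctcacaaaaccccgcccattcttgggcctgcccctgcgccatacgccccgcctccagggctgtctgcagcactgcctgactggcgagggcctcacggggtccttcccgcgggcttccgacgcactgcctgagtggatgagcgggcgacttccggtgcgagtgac
Psmb6, a cutting subunit of the constitutive core, chr11:70525107-70525356, plus strand: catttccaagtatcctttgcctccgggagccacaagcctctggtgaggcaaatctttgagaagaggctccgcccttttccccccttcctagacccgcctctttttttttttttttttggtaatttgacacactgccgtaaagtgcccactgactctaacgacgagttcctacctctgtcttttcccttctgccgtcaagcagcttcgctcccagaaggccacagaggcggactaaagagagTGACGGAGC
Psmb8, the immunoproteasome counterpart of Psmb5, chr17:34197945-34198194, plus strand: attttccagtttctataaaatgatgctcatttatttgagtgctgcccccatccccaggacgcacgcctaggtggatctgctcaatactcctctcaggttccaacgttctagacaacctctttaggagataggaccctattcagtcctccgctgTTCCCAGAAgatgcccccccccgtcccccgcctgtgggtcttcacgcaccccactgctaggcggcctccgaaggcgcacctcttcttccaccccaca

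The antioxidant response element core was present in 5 of the 35 member promoters (14.3%), against 11.5% of 27025 genes in the same window. Psmb6 and Psmd12 held it, on opposite strands, and Psmc1 and Psmc4 did not. Psmb6 and Psmd12 were the only 2 of the 11 lowered members with a promoter that held it. The 4 lowered promoters printed are therefore not representative of the 11 for this motif. A CCAAT box was found in 13 member promoters (37.1%, against 37.5% of all genes). A GC box (GGGCGG, either strand, not capitalised) was found in 21 (60.0%, against 35.4%). Among the 11 members with a promoter that were lower at 30 mM, 2 held the antioxidant response element core, 3 the CCAAT box, 7 the GC box and 0 an interferon-stimulated response element core or GAS element. No motif was shared by all 4 of the lowered promoters printed here. A match of letters is a description and not a binding site. The GAS element of Psmb8, a motif bound by STAT factors, was the single one among the member promoters.

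At 30 mM ethanol, 13 of 40 members fell and 0 rose, at an adjusted p under 0.05 in edgeR's quasi-likelihood test over all 13235 genes tested. The background was 6.65% of genes lower and 3.02% higher. Well-counted genes passed more often: among the 3060 tested genes with a mean count of at least 100, 16.1% were lower, and among the 33 members above that count 13 were (39.4%). The falls were small. The median log2 difference of the members was -0.18 and 38 of 40 were negative, while the median over all genes tested was 0.02 and that of the well-counted genes -0.05. An unadjusted p under 0.05 was reached by 26 members and by 23.5% of all genes. The 13 members were 11 of 17 regulatory particle subunits, 1 of 13 constitutive core subunits (Psmb6) and 1 of 4 activators (Psme1), with 0 of 3 immunoproteasome subunits and 0 of 3 chaperones.

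**Figure D1:**
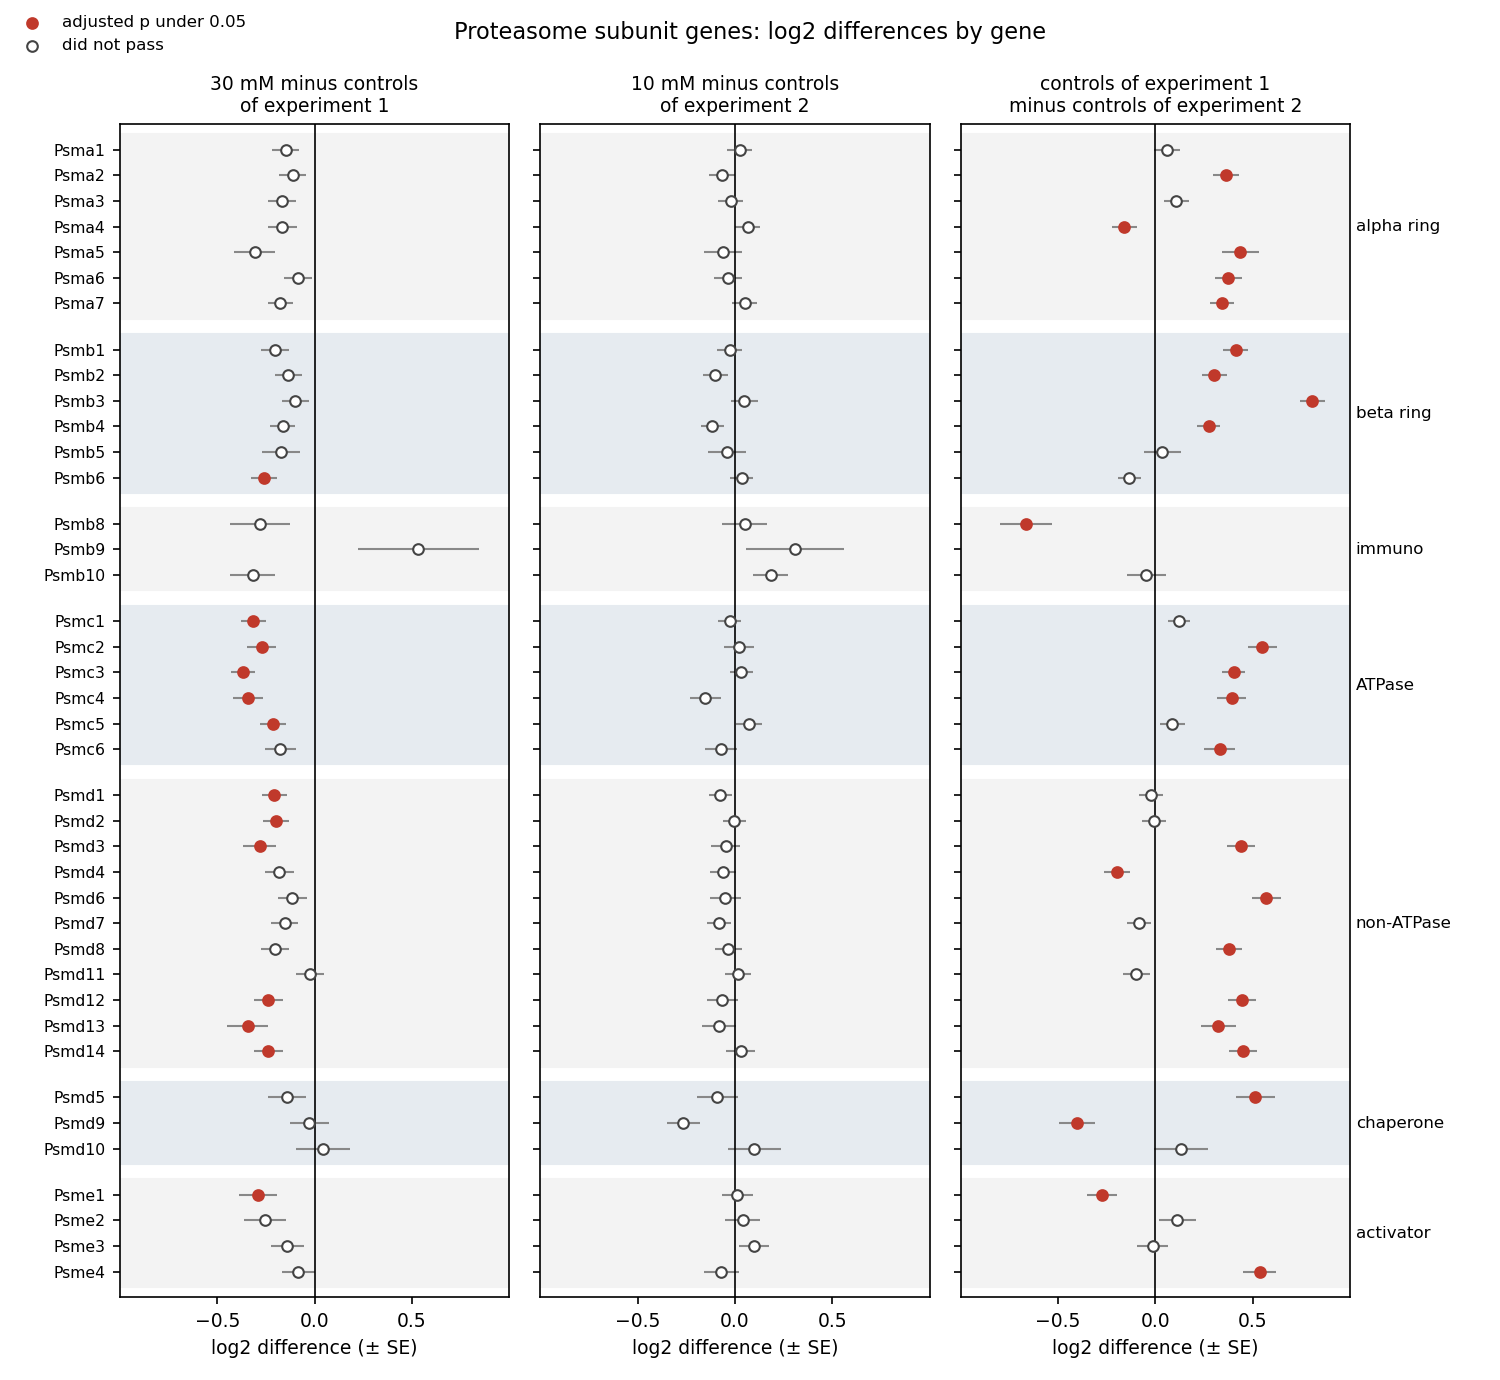
Log2 difference with its SE for each of the 40 genes (rows, grouped by role) in 3 comparisons: 30 mM ethanol minus its controls (left), 10 mM minus its controls (middle) and the control groups of the experiments (right), n = 6 wells per group. Filled points had an adjusted p under 0.05: 13 on the left, 0 in the middle and 25 on the right, where Psmb9 was not tested.

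Of the 6 ATPases of the regulatory particle ring, 5 fell at 30 mM, and the median log2 difference was -0.29. Psmc3, which takes part in opening the gate of the core, had lowest, median and highest levels of 288, 307 and 354 CPM at 30 mM and 372, 414 and 431 CPM in the controls. All 6 ethanol wells lay below all 6 controls, and the log2 difference was -0.37 (SE 0.0627, edgeR adjusted p = 5.39e-05). Psmc3 overlaps Slc39a13, a zinc transporter gene with a mean count of 85.3, on the opposite strand, so some of its reads are uncertain. Psmc1, which also docks its tail into the core, was at 267, 290.0 and 341 CPM against 346, 368 and 407 CPM, again with no overlap (-0.31, SE 0.0642, edgeR adjusted p = 0.000676). For Psmc4, a member of the same ring, the levels were 111, 134 and 154 CPM against 159.8, 167 and 195 CPM. These groups did not overlap either, with a log2 difference of -0.34 (SE 0.0779, edgeR adjusted p = 0.00236). Psmc2 measured 110.2, 119.7 and 135 CPM against 135, 150.0 and 159 CPM, separate by less than 1 CPM (-0.27, SE 0.0746, edgeR adjusted p = 0.014). Psmc5 fell by 0.21 on the log2 scale (edgeR adjusted p = 0.0340), and its groups were separate too. Psmc6 had a log2 difference of -0.18 and did not pass (edgeR adjusted p = 0.164). The promoters of Psmc1 and Psmc4 shown above share none of the capitalised motifs.

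**Figure D2:**
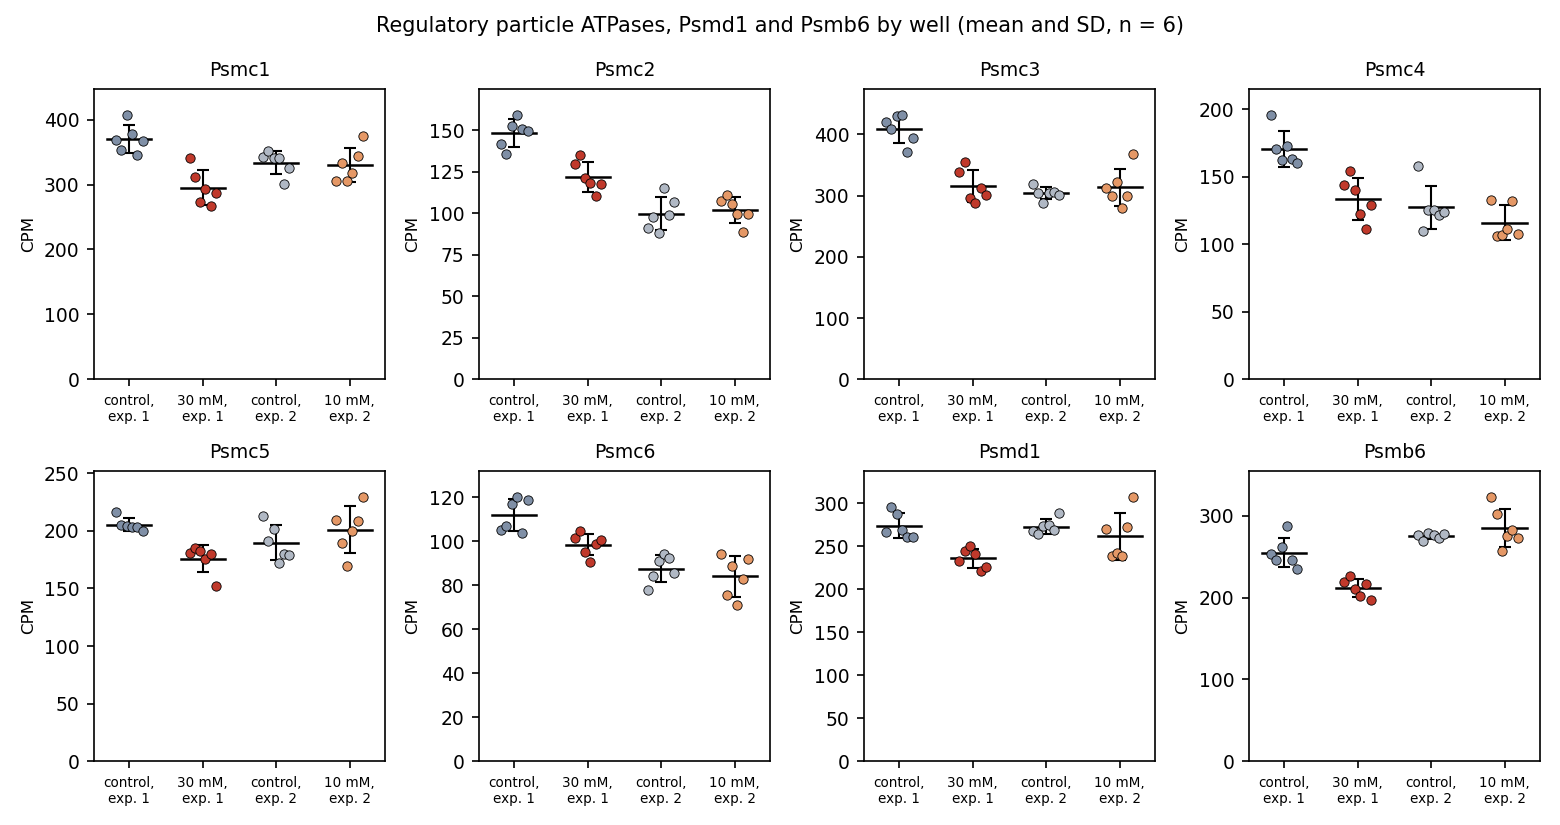
Level in each well (CPM, axis from 0) of the 6 regulatory particle ATPase genes, Psmd1 and Psmb6 in the 4 groups, with mean and SD (bars), n = 6 wells. In experiment 1 the 30 mM wells of Psmc1, Psmc2, Psmc3, Psmc4, Psmc5, Psmd1 and Psmb6 lie below all control wells, and in experiment 2 the groups overlap for each gene shown.

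Among the 11 non-ATPase subunits of the regulatory particle, 6 fell at 30 mM and the median log2 difference was -0.20. Psmd1, a large scaffold of the base, was at 221, 237 and 249.7 CPM at 30 mM and at 261, 268 and 295 CPM in the controls (lowest, median and highest). It was the single non-ATPase subunit whose groups did not overlap (-0.21, SE 0.0639, edgeR adjusted p = 0.0294). Psmd3, a scaffold subunit of the lid, was at 111, 132 and 174 CPM against 150.3, 164 and 189 CPM, a log2 difference of -0.28 (SE 0.0842, edgeR adjusted p = 0.0247). Its groups overlapped, with the highest ethanol well above the control median. Psmd13, also of the lid, was at 61.3, 69.7 and 97.3 CPM against 75.9, 98.4 and 107 CPM (-0.34, SE 0.104, edgeR adjusted p = 0.0257), with overlap as well. Some reads of Psmd13 are uncertain, because the gene Sirt3 (mean count 14.2) overlaps it on the opposite strand. Psmd14, the enzyme that cuts ubiquitin chains off the substrate, had a log2 difference of -0.24 (edgeR adjusted p = 0.0312). Psmd12, a scaffold of the lid, had -0.24 (edgeR adjusted p = 0.0365), and Psmd2, a base subunit that docks ubiquitin shuttle proteins, had -0.20 (edgeR adjusted p = 0.0472). Psmd4, a ubiquitin receptor, had -0.18 and Psmd11, a lid subunit, -0.02, and neither passed. Over both kinds of subunit, 6 of 17 regulatory particle genes had ethanol wells that all lay below the controls, where 3.1% of all genes tested did. The lowest mean count among these 17 was 112 (Psmd13), and the share among genes with a mean count of at least 100 was not computed.

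In the constitutive core, 1 of 13 genes fell. The 13 log2 differences were all negative, from -0.31 to -0.09 with a median of -0.17, and 8 had an unadjusted p under 0.05, and 1 passed the adjusted threshold. That gene was Psmb6, the cutting subunit with caspase-like activity, at 197, 214 and 226 CPM at 30 mM (lowest, median and highest) and between 235 and 288 CPM in the controls. Its groups did not overlap (-0.26, SE 0.0655, edgeR adjusted p = 0.00634). A pseudogene, Psmb6-ps2, had a mean count of 7.79 and could share its reads. Psmb5, with the chymotrypsin-like site, was at 51.0, 55.6 and 65.2 CPM against 57.0, 63.9 and 71.9 CPM. Those groups overlapped and the difference did not pass (-0.17, SE 0.0982, edgeR adjusted p = 0.295). Psmb7, with the trypsin-like site, was below the count minimum and is not described by level. All 7 alpha ring genes missed the threshold, with Psma5 nearest to it (-0.31, edgeR adjusted p = 0.0603). Whether the core and the regulatory particle differed in their response was not tested.

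Summed over its 17 genes, the regulatory particle stood at 2754, 2915 and 3226 CPM at 30 mM (lowest, median and highest) and at 3354, 3500.1 and 3687 CPM in the controls, which did not overlap. The core sums, over 13 genes, were 2386, 2565 and 2845 CPM against 2738, 2895 and 3078 CPM, which did. Sequencing depth moved with these sums in experiment 1. The 2 deepest wells at 30 mM, replicates 1 and 2 with total counts of 1688867 and 1610397, had the highest regulatory particle sums, 3226 and 3185 CPM. The other 4 ethanol wells, with total counts from 1218861 to 1358062, had 2754 to 2941 CPM. In the controls, replicates 3 and 4 were deepest (1659254 and 1817028) and had the highest sums (3687 and 3677 CPM), while replicate 6 was shallowest (1227777) and lowest (3354 CPM). For the regulatory particle, the deepest ethanol well (3226 CPM) was below the shallowest control (3354 CPM). For the core, the deepest ethanol well (2845 CPM) was above the shallowest control (2738 CPM). With log2 total count as a covariate, an alternative chosen after the data were seen, 7 of 40 members passed in place of 13. These were Psmc1, Psmc2, Psmc3, Psmc4, Psmc5, Psmd1 and Psmb6, all lower.

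**Figure D3:**
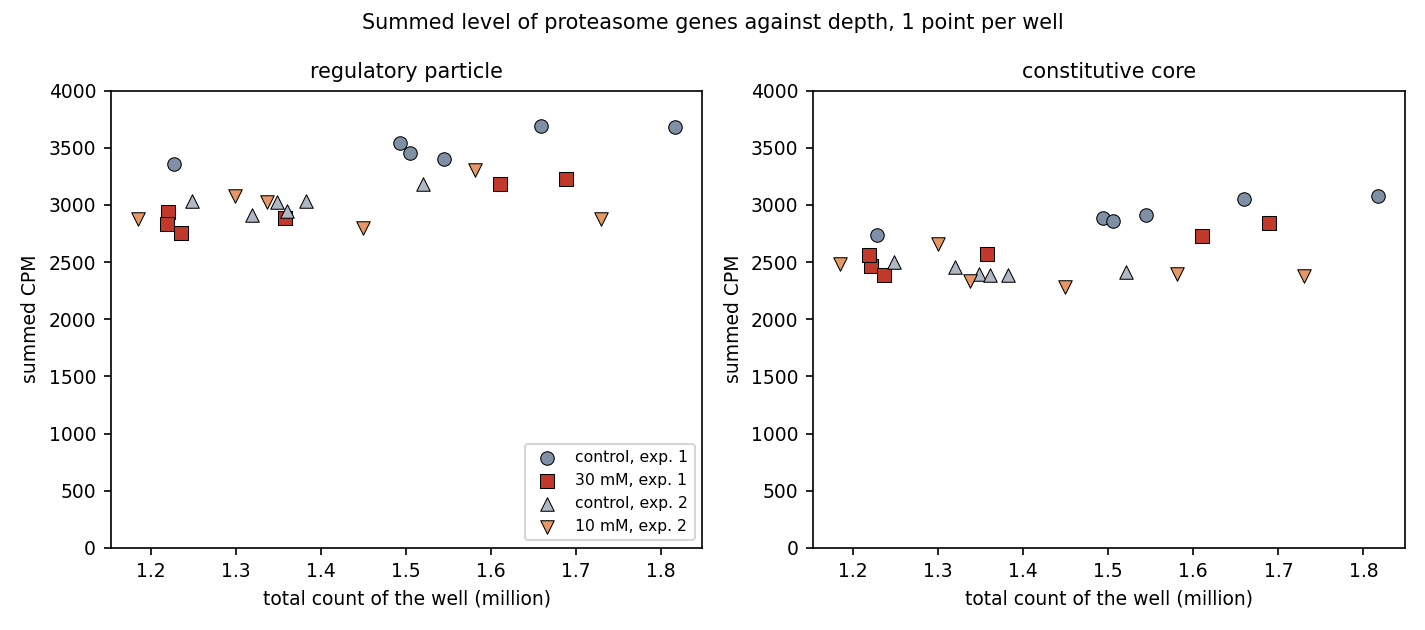
Summed CPM of the 17 regulatory particle genes (left) and the 13 constitutive core genes (right) against the total count of the well, 1 point per well, 4 groups of 6. The 30 mM wells (squares) lie below the controls of experiment 1 (circles) on the left, and within experiment 1 the 2 deepest wells of each group have the highest sums.

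The count of 13 also depended on single wells. It was 8, 6, 4 and 5 without ethanol replicates 3, 4, 5 and 6 in turn, and 6 without control replicate 3 or control replicate 4. It was 17 without ethanol replicate 1, the well with the highest oligodendrocyte sum, and between 9 and 16 without each of the others. DESeq2 called 7. Psmc3, Psmc1, Psmc4 and Psmb6 passed at 0.05 in each of these fits. Other features of the wells moved with the 30 mM group as well. Mitochondrial genes took 4.09% of counts at 30 mM and 3.32% in its controls. Mature oligodendrocyte markers were higher for 7 of 9 genes (sum 6536 to 6871 CPM in 5 wells and 11416 CPM in replicate 1, against 4913 to 5931), astrocyte markers for 4 of 7 (4747 to 6126 CPM against 3412 to 4342), and mural and fibroblast markers lower for 6 of 8 (372 to 430.2 CPM against 716 to 1058). No marker in these lists was at 0 in all wells of experiment 1. Their part in the proteasome result was not tested.

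The immunoproteasome genes showed no call at 30 mM, and their differences were of both signs. Psmb8 was at 18.5, 20.4 and 23.4 CPM at 30 mM and 21.4, 24.6 and 33.6 CPM in the controls (lowest, median and highest), with overlap (-0.28, SE 0.154, edgeR adjusted p = 0.267). Psmb10 was at 35.7, 46.3 and 57.3 CPM against 43.5, 57.4 and 69.9 CPM, also with overlap (-0.32, SE 0.115, edgeR adjusted p = 0.0702). Both had lower medians in the ethanol wells. Psmb9 was at 5.54, 9.03 and 11.3 CPM against 2.66, 5.77 and 10.1 CPM, and its SE was the largest of the 40 members (0.53, SE 0.309, edgeR adjusted p = 0.299). Microglia markers summed to 299 ± 43.7 CPM in the ethanol wells (SD, n = 6) against 292 ± 60.5 CPM in the control wells. Of the 14 microglia markers 8 were tested, with 1 called higher and 0 lower, where 3.02% of all genes were higher. The 1 called was Cx3cr1 (1.07, SE 0.292, edgeR adjusted p = 0.0124), whose groups overlapped. The levels of Psmb9 lie close to the floor, and 1 control well was at 2.66 CPM. Psmb9 also overlaps the antigen peptide transporter gene Tap1 on the opposite strand in the GENCODE M21 annotation. Whether strand was used in counting is not given in the sources used here, so reads of the pair may not be separable.

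**Figure D4:**
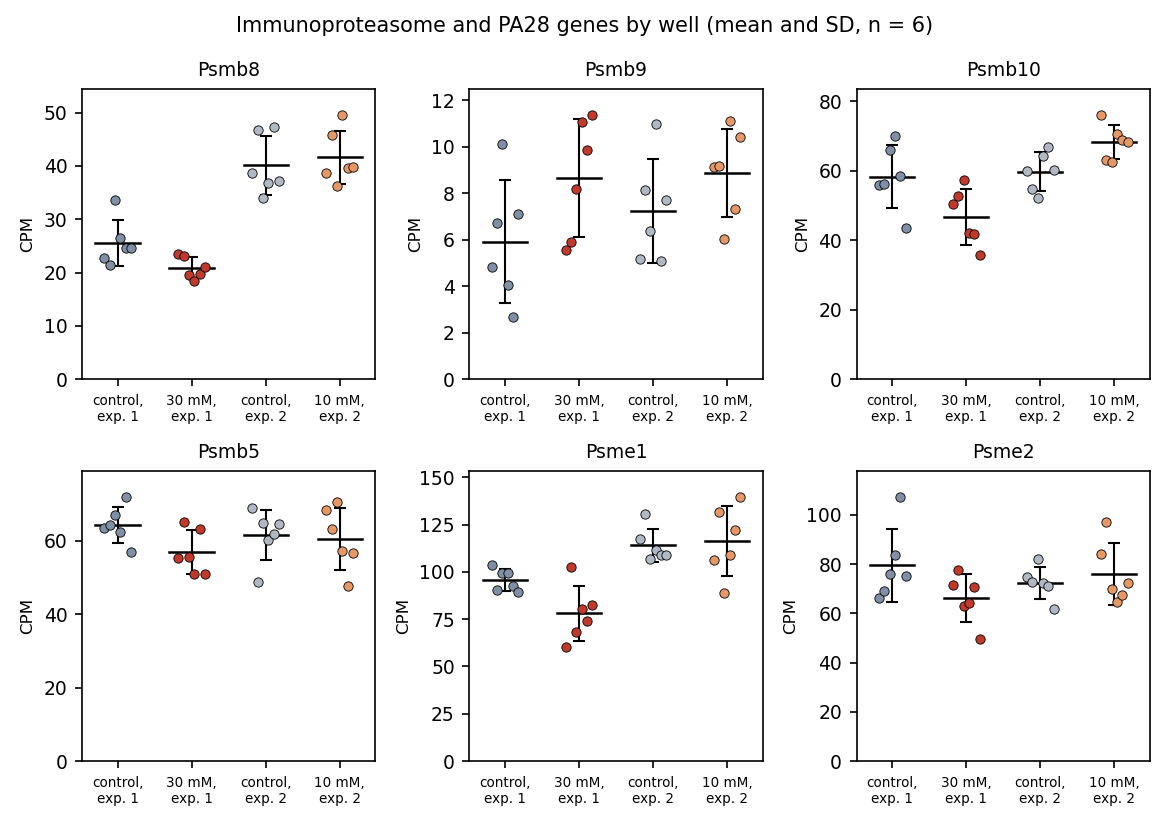
Level in each well (CPM, axis from 0) of the immunoproteasome genes Psmb8, Psmb9 and Psmb10, of Psmb5, which Psmb8 replaces, and of the PA28 genes Psme1 and Psme2, with mean and SD (bars), n = 6 wells per group. Of these 6 genes, Psmb8 alone has no overlap between the experiments, with all wells of experiment 1 at 33.6 CPM or lower and all of experiment 2 at 33.9 CPM or higher.

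The share of Psmb8 in the counts of Psmb8 and Psmb5 together sets the exchangeable subunits against each other. In experiment 1 this share averaged 26.9% ± 2.21 over the ethanol wells and 28.4% ± 3.26 over the control wells (SD, n = 6 each), a gap smaller than either SD. In experiment 2 it averaged 40.8% ± 4.93 over the ethanol wells and 39.5% ± 5.53 over the control wells (SD, n = 6 each). For Psmb9 with Psmb6 the share was 3.96% ± 1.28 at 30 mM against 2.27% ± 1.01, and 3.02% ± 0.636 at 10 mM against 2.56% ± 0.767 (SD, n = 6 each). These shares compare groups and not the protein make-up of the complex. A pseudogene of Psmb5, Psmb5-ps, had a mean count of 14.1 and could share reads with it. Psmb9 could share reads with Tap1, which it overlaps.

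Of the activators, which open the core in place of the regulatory particle, Psme1 and Psme2 form the interferon-inducible PA28 ring. Psme1 was at 60.4, 77.3 and 103 CPM at 30 mM and 89.4, 95.9 and 104 CPM in the controls (lowest, median and highest). Psme1 overlaps the gene Emc9 (mean count 25.8) on the opposite strand, so some of its reads are uncertain. The groups of wells overlapped and the log2 difference of Psme1 lay at the threshold (-0.29, SE 0.0973, edgeR adjusted p = 0.0497). It did not pass with total count as a covariate (edgeR adjusted p = 0.0682), and passed in 2 of the 12 fits that left out 1 well. Psme2, its partner, was at 49.4, 67.5 and 77.7 CPM against 66.3, 75.6 and 107 CPM and did not pass (-0.26, SE 0.108, edgeR adjusted p = 0.134). Psme3, which forms a nuclear ring of its own, was at 85.5, 94.3 and 100.4 CPM against 91.8, 104 and 117 CPM (-0.14, SE 0.0833, edgeR adjusted p = 0.312). Psme4, a large single-chain activator, had a log2 difference of -0.08. The 3 assembly chaperones Psmd5, Psmd9 and Psmd10 had differences from -0.14 to 0.04 and none passed.

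At 10 mM ethanol, 0 of 40 members passed in edgeR's test over 13538 genes, where 0.657% of genes did. DESeq2 and limma voom also gave 0, and 3 members had an unadjusted p under 0.05 (10.1% of all genes). These were Psmd9 (-0.27), Psmb4 (-0.12) and Psmb10 (0.18), with edgeR adjusted p of 0.155, 0.493 and 0.493. The median log2 difference of the members was -0.03 and 23 were negative. The SE of these differences ran from 0.0576 (Psmc1) to 0.252 (Psmb9), so that missing the threshold does not show that a member was at the same level. Psmc3 was at 279.6, 306 and 368 CPM at 10 mM and 288, 304 and 319 CPM in the controls of experiment 2, and Psmc1 at 305, 325 and 375 CPM against 301, 341 and 352 CPM. Psmb6 was at 256, 279 and 323 CPM against 269, 276 and 279 CPM. The ethanol wells of Psmc3 and Psmb6 reached past their controls at both ends, and those of Psmc1 at the upper end alone. Among the immunoproteasome genes, Psmb10 was at 62.4, 68.6 and 75.9 CPM against 52.3, 60.1 and 66.9 CPM, Psmb8 at 36.2, 39.7 and 49.5 CPM against 33.9, 37.9 and 47.3 CPM, and Psmb9 at 6.04, 9.13 and 11.1 CPM against 5.09, 7.04 and 11.0 CPM. All 3 had the higher median at 10 mM, and none passed. The regulatory particle sums were 2793 to 3302 CPM at 10 mM and 2914 to 3179 CPM in its controls. Some cell type markers were called at 10 mM, where 0.657% of all genes were. Higher were 3 of 9 mature oligodendrocyte, 2 of 12 tested microglia and 1 of 5 neuron markers. Lower were 2 of 7 tested mural and fibroblast markers, and 0 of 7 astrocyte markers were called.

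The difference between the responses at 30 and 10 mM was tested over all 24 wells. It passed for 4 of 40 members, each with the lower response at 30 mM, where 2.4% of 14655 genes passed in that direction (7.65% of genes with a mean count of at least 100, a count that 3 of the 4 members reached, or 9.09% of the 33 members above it). The share among well-counted members was thus near that of all such genes. The members were Psmc3 (-0.41, SE 0.0902, edgeR adjusted p = 0.00289), Psmc1 (-0.30, SE 0.0906, edgeR adjusted p = 0.0485), Psmb6 (-0.31, SE 0.0906, edgeR adjusted p = 0.0386) and Psmb10 (-0.51, SE 0.147, edgeR adjusted p = 0.0334). Psmb10 passed here without passing at either dose: its level was below the controls at 30 mM (-0.32) and above them at 10 mM (0.18). The count fell to 2 without ethanol replicate 3 or 5 of experiment 1, to 1 without its ethanol replicate 4 or 6 or control replicate 3 or 4, and to 2 without 10 mM replicate 1 or 2 or control replicate 2, 3 or 5 of experiment 2. With log2 total count as a covariate it was 1, Psmc3 (edgeR adjusted p = 0.0147).

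More members were called between the untreated cultures of the experiments than between ethanol and control wells. Of 39 members tested, 20 were higher in the controls of experiment 1 and 5 lower, where 21.3% of 13479 genes were higher and 22.3% lower. Among genes with a mean count of at least 100 the shares were 39.9% and 20.5%, and among the 33 members above that count 18 were higher (54.5%) and 4 lower (12.1%). The median log2 difference of the members was 0.27. Psmb3, a structural beta subunit, was higher at 258 ± 11.3 against 144 ± 8.82 CPM (mean ± SD, n = 6; 0.81, SE 0.0649, edgeR adjusted p = 9.7e-19). Psmd6, of the lid, was at 157 ± 12.8 against 104 ± 8.59 CPM (0.57, SE 0.0746, edgeR adjusted p = 7.29e-10). Psmc2 (148 ± 8.36 against 99.6 ± 10.0 CPM), Psmc3 (409 ± 23.1 against 304 ± 9.97 CPM) and Psmb1 (314 ± 27.3 against 232 ± 13.8 CPM) followed, each higher in experiment 1. The wells of these 5 genes did not overlap between the control groups, nor did those of 13 other higher members. In all, 18 of 39 members lay separately higher and 2 separately lower, against 10.9% and 8.03% of all genes tested. These shares were not computed for genes with a mean count of at least 100.

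The constitutive core and the regulatory particle had the same direction between these control groups, with 8 of 13 and 10 of 17 members higher in experiment 1 and medians of 0.30 and 0.33. Psmb8 went the other way, at 25.6 ± 4.28 CPM in the controls of experiment 1 and 40.1 ± 5.54 CPM in those of experiment 2 (-0.66, SE 0.132, edgeR adjusted p = 2.22e-05). Psme1 (95.8 ± 5.77 against 114 ± 8.86 CPM) and Psmd9 (69.2 ± 10.7 against 90.2 ± 11.0 CPM) were lower in experiment 1 as well. So were Psmd4 (156 ± 8.74 against 176 ± 9.95 CPM) and Psma4 (206 ± 18.5 against 226 ± 9.83 CPM), by less. Psmb10 had a log2 difference of -0.05 and did not pass. Markers of microglia, which are immune cells, moved with Psmb8: all 12 tested of 14 were lower in experiment 1, with sums of 292 ± 60.5 against 2606 ± 156 CPM (SD, n = 6). Other features were compared between the same control groups (experiment 1 against experiment 2, SD, n = 6). Among all genes tested, 21.3% were higher in experiment 1 and 22.3% lower. Mural and fibroblast markers summed to 893 ± 128 against 618 ± 73.4 CPM, with 2 of 8 higher, near the share of all genes, and 4 lower. The higher sum came largely from 1 gene, Acta2, at 292 to 422 CPM against 18.7 to 30.4 CPM. Neuron markers summed to 267 ± 24.4 against 378 ± 24.3 CPM, with 2 of 5 lower. Astrocyte markers were higher for 4 of 7 and lower for 2 (sums of 3412 to 4342 against 4044 to 4316 CPM). Oligodendrocyte precursor markers summed to 558 ± 23.6 against 644 ± 25.7 CPM, with 3 of 4 lower. Of the mature oligodendrocyte markers 1 of 9 was lower, a share below that of all genes. Mitochondrial genes took 3.32% of counts against 2.23%, and total counts averaged 1541158 against 1363406. The part of these features in the results between the controls was not tested. The regulatory particle sums at 30 mM (2754 to 3226 CPM), while below their own controls, overlapped those of the controls of experiment 2 (2914 to 3179 CPM).

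Other genes build, feed or control the proteasome, or belong to antigen processing and its regulators (10 of those listed). Of 38 such genes listed, 37 were in the table and 35 were tested, and at 30 mM 2 fell and 1 rose, where 6.65% of all genes were lower and 3.02% higher. These shares are near the background. The genes that fell were Psmg4, a chaperone of core assembly (39.3 to 47.0 CPM against 50.6 to 63.5 CPM, -0.41, SE 0.105, edgeR adjusted p = 0.0073), and Ubqln2, a shuttle that carries ubiquitin-tagged proteins to the proteasome (51.0, 55.9 and 69.7 CPM against 59.3, 73.8 and 78.0 CPM, -0.30, SE 0.0992, edgeR adjusted p = 0.0425). Psmg4 wells did not overlap and Ubqln2 wells did. The gene that rose was Tap1, which carries proteasome-cut peptides toward MHC class I, at 38.8, 42.7 and 48.7 CPM against 24.8, 29.2 and 37.5 CPM without overlap (0.52, SE 0.125, edgeR adjusted p = 0.00445). Because Tap1 overlaps Psmb9 on the opposite strand, as given above, their reads may not be separable. Tap2, the partner of Tap1, did not pass (0.26, SE 0.231, edgeR adjusted p = 0.522). Nor did Pomp, the maturation factor of the core (-0.16, SE 0.0626, edgeR adjusted p = 0.107), or Nfe2l1, the gene of NRF1 (-0.04, SE 0.0793, edgeR adjusted p = 0.787), whose median was 186 CPM at 30 mM and 192 CPM in the controls. Of the 5 genes listed for NRF1 control and the 5 tested of ubiquitin and its activation, 0 passed at 30 mM. The NRF1 list also held Nfe2l2, which encodes a different transcription factor. At 10 mM, 0 of the 35 passed, and between the control groups 11 were higher in experiment 1 and 1 lower, where 21.3% and 22.3% of all genes were.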

How the data were processed

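RNA from 24 wells was measured by 3′ tag sequencing with single-end reads. What the authors deposited are raw read counts for each Ensembl gene identifier in each well, not normalized. Cutadapt 1.18, STAR and build GRCm39 are named in the submitters' processing notes. The counter, annotation, use of strand and handling of PCR duplicates are not given in the sources used here. Symbols were matched by identifier (52083 of 55359). No pair of wells of a group agreed within sampling noise (60 pairs, chi-square over degrees of freedom between 1.07 and 2.88).

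Counts were tested with edgeR 4.0.16 (quasi-likelihood, TMM, filterByExpr at 10 counts, Benjamini-Hochberg over all genes tested, threshold 0.05) in R 4.3.3, each dose against its own controls. SE is that of the log2 difference. All 40 members passed the filter at both doses and 39 between the control groups. The test was checked on simulated counts. Total counts ranged from 1184609 to 1817028. Alternatives were other size factors, no filter, DESeq2 1.42.0, limma 3.58.1 voom, other thresholds, a joint fit, a replicate block, a depth covariate and each well left out. Well values were given for the immunoproteasome subunits, their counterparts, Psme1 to Psme3 and up to 8 called members per comparison by smallest p, and means for up to 5 higher and 5 lower members between controls. Other called members are given by log2 difference. Related genes were named where called, with Tap1, Tap2, Nfe2l1 and Pomp. The members and lists were chosen with earlier results of these data known. A cell type marker gene is not reported here and was left out of its list.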

Additional observations from a re-analysis of the deposited data

Results flagged for a closer look

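In 4 of 104 groups of 6 wells examined (21 members and 5 class sums in 4 groups), 1 well stood far from the other 5. Chance marks about 1 in 20 such groups, or 5.2 here. Psmc4 was at 195 CPM in replicate 1 of the controls of experiment 1, with the other wells at 159.8 to 173 CPM. It was at 158 CPM in replicate 1 of the controls of experiment 2, with the others at 109.6 to 125 CPM. Psmd9 was at 65.1 CPM in replicate 3 at 10 mM, with the others at 75.5 to 80.7 CPM. The sum of the 4 activator genes was 394 CPM in replicate 2 at 30 mM, with the others at 318 to 334 CPM.

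The response to ethanol differed between 30 and 10 mM for 4 members, by a test of the difference itself over 24 wells. The log2 response at 30 mM minus that at 10 mM was -0.41 for Psmc3, -0.30 for Psmc1, -0.31 for Psmb6 and -0.51 for Psmb10. Dose and experiment cannot be told apart in these differences. Among the 33 members with a mean count of at least 100 the share was 9.09%, near the 7.65% of all such genes, and the number of members fell to 1 with log2 total count as a covariate and to 1 without ethanol replicate 4 or 6 or control replicate 3 or 4 of experiment 1.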

How the results depend on the processing

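At 30 mM the number of members called was 13. It was 8 with no low-count filter, 7 in DESeq2, 4 at an adjusted p under 0.01, 7 with log2 total count as a covariate, 15 in the joint fit, 19 at an adjusted p under 0.1 and 4 to 17 with single wells left out, and all called members were lower in each. For the difference between doses the number was 4, and it was 2 with no filter, 2 with the replicate block, 1 at an adjusted p under 0.01, 1 with log2 total count as a covariate and 1 to 6 with single wells left out. At 10 mM it was 0 under each alternative, and between the controls it ranged from 23 to 28 around 25. The cause of these shifts was not tested, except that a stricter threshold passes fewer genes. No pairing by replicate number was seen at 30 mM. Same-numbered wells had correlations of deviations from -0.18 to 0.25, and 1 of 6 correlated best with its own number. So few correlations cannot show that the wells were unpaired. With the replicate block, 12 members passed at 30 mM and 2 for the difference between doses.

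Over named genes, 1135 of 1298 values kept direction and side of the threshold. Of the others, 131 lost the call, 11 gained it and 21 changed sign, each a difference near 0 that was not called. These were, on the log2 scale, Psme1 at 10 mM in limma voom (-7.17e-05), and between the controls Psmb5 with total counts only (-0.0222) or total count as a covariate (-0.0248), Psmb10 with no filter (0.00522), and Psme3 with no filter (0.0376) or in the joint fit (0.00432). With single wells left out, the 10 mM values ranged from -0.0453 to 0.0796 for Psme1, -0.0323 to 0.0880 for Psme2, -0.0192 to 0.105 for Psmb8 and -0.100 to 0.0148 for Psmb5, and the control values from -0.0622 to 0.0204 for Psme3, -0.0952 to 0.0220 for Psmb10 and -0.0192 to 0.0739 for Psmb5. Depth limits Psmb9, whose mean count was 10.8.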

Other observations

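Psmb7, which encodes the trypsin-like cutting subunit that Psmb10 replaces and which a constitutive core contains, had 16 counts in all over the 24 wells and at most 3 in any well. Its pseudogene Psmb7-ps2 was listed at 0. Other constitutive beta subunits had mean counts from 87.2 (Psmb5) to 412 (Psmb4). The position of its tags relative to the annotated transcript was not examined.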
